A study of Mus musculus with 6 samples.

Results

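The genes described here are the amino acid transporters of 7 solute carrier (SLC) families, taken by gene symbol. They are the protein-coding rows named *Slc1a*, *Slc3a*, *Slc6a*, *Slc7a*, *Slc36a*, *Slc38a* or *Slc43a* followed by a number, whose counts in the 6 libraries add up to 10 or more. Of 47 rows with such a name, 39 passed the limit, out of 14776 protein-coding rows that passed it and 23424 rows in all. The families held 4 members (*Slc1*), 1 member (*Slc3*), 9 members (*Slc6*), 11 members (*Slc7*), 4 members (*Slc36*), 7 members (*Slc38*) and 3 members (*Slc43*). *Slc43a1*, with 10 counts in total, lay just inside the limit, and *Slc6a2*, the noradrenaline transporter, with 9 counts, lay just outside it. The other 7 rows under the limit held 0 to 3 counts, with *Slc1a7*, *Slc6a15*, *Slc6a17* and *Slc38a8* at 0, *Slc1a1* at 1, and *Slc3a1* and *Slc7a10* at 3. A symbol does not fix a substrate. *Slc7a6os* is named for its place beside *Slc7a6* and is not a transporter, *Slc43a3* carries nucleobases, *Slc6a3* and *Slc6a4* carry dopamine and serotonin, *Slc6a8* carries creatine, and *Slc6a6* carries taurine. *Slc7a6os* was left out of sums over the genes and kept in counts of members.

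Amino acid transporters bring in the building blocks of protein, and they also set what a macrophage can make from arginine, cystine and glutamine. Some work alone, while the light chains of the *Slc7* family reach the cell surface only when bound to a heavy chain such as CD98, the product of *Slc3a2*. Others sit in the membrane of the lysosome and pass amino acids, or the signal that they are present, to the mTORC1 kinase.

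The libraries came from tumor-associated macrophages (TAMs) of YUMM1.7 tumors, a mouse melanoma line injected into the skin of female wild-type C57Bl/6J mice that were 8 weeks old at tumor induction and received no other treatment. On day 21, live CD45+ Lin- CD11b+ cells were sorted into an F4/80high and an F4/80low subset, fixed, and used for poly-A RNA-seq. Each library pooled cells from 10 tumors, and the 3 libraries of each subset came from 3 independent experiments. Libraries of the same replicate number were taken as pairs. Each library is therefore a mean over pooled animals and a single tumor line. F4/80 is the protein of *Adgre1*, whose transcript was higher in the F4/80high library of 3 of 3 pairs, with a log2 fold change of 0.67 that did not pass the test (SE 0.30, edgeR adjusted p = 0.673).

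The total counts per library lay between 16045281 and 43604373. Where 3 values are given for a subset, they are those of replicates 1, 2 and 3 in that order. The replicate 3 libraries, which the study labels as a batch of their own, were the smallest. In these, *Lars2*, *Gm23935* and *Gm15564* together held 16.1% and 17.1% of all counts, while the other 4 libraries had 0.378% to 0.609%. Levels are given as CPM, the counts scaled by the total of the protein-coding rows and its TMM factor, and 3 counts in a library corresponded to 0.0582 to 0.342 CPM. All 12 macrophage markers were detected. Their summed level was 33377 CPM in F4/80high replicate 2 and between 8481 and 15531 CPM in the other 5 libraries. Markers of granulocytes differed between the subsets by the unadjusted test, with 8 of 12 neutrophil and 7 of 9 eosinophil markers at a p under 0.05 and lower in F4/80high TAMs. The neutrophil sum was 752 to 2146 CPM in F4/80high and 1532 to 4902 CPM in F4/80low TAMs, and the eosinophil sum was 103 to 203 and 262 to 680.1 CPM. No marker of either list was at 0 in all libraries. Of the other lists, 4 of 12 macrophage, 2 of 11 T and NK cell, 1 of 6 endothelial and 1 of 4 melanoma markers had such a p and were higher in F4/80high TAMs. The melanoma marker was *Mitf*, also in the list of mTORC1 sensing below. The other 3 tested, of 10 listed, had log2 fold changes of 0.004 (*Pmel*), 0.25 (*Sox10*) and 0.66 (*Slc24a5*). Lower were 1 of 8 fibroblast and 1 of 9 dendritic cell markers, and 0 of 6 B cell, 0 of 8 mast cell and basophil and 0 of 1 keratinocyte markers tested had such a p. Over all genes, 3.26% had such a p and were higher and 4.30% were lower.

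No transporter passed the test between the subsets. Of the 39 members, 0 had a Benjamini-Hochberg adjusted p under 0.05 with an absolute log2 fold change above 1 in edgeR's quasi-likelihood fit with batch and subset, where 0% of the 14776 genes did. The lowest adjusted p was 0.536 among the members and 0.443 over all genes. At an unadjusted p under 0.05 there were 3 members, against 7.57% of all genes. Among them, 1 was higher in F4/80high TAMs (*Slc38a6*; 3.26% of all genes) and 2 were lower (*Slc7a11* and *Slc6a12*; 4.30% of all genes). *Slc6a12* had 0 counts in every F4/80high library and passed the limit of 10 counts through F4/80low alone, so its direction was fixed by that limit. The count became 6 when F4/80high replicate 1 was left out, against 13.5% of all genes, and 0 when F4/80low replicate 1 was left out, against 4.08%. Among the 23 members whose mean log2 CPM was 1 or more, called well-expressed here, 17 had an absolute log2 fold change under 0.5, and 73.9% of all genes at that level did. This count includes members whose pairs went in opposite directions, such as *Slc36a4*, described below. Their median log2 fold change was 0.19, against 0.02 over all genes at that level, and over all 39 members it was -0.03 against 0.01. In bulk samples, fewer cells of a type and less RNA per cell cannot be told apart, which holds for every value given here.

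The members were then compared pair by pair. The F4/80high library was the higher one in all 3 pairs for 6 members (*Slc38a6*, *Slc3a2*, *Slc43a3*, *Slc6a8*, *Slc7a2* and *Slc7a6os*; 16.0% of all genes) and the lower one in all 3 pairs for 7 members (*Slc7a11*, *Slc38a1*, *Slc6a12*, *Slc1a2*, *Slc36a3*, *Slc6a4* and *Slc7a3*; 15.7% of all genes). Together 13 of 39 members kept the same sign in all pairs, against 31.7% of all genes, so the share was near that of any gene. When the pairs entered the edgeR fit as a block, 0 members were called against 0.514% of all genes, 5 had an unadjusted p under 0.05 against 9.84%, and the lowest adjusted p of a member was 0.164. DESeq2 with batch called 0 members against 1.02% of all genes. DESeq2 with the replicate block called 1 member, *Slc7a2*, against 2.42% of all genes.

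**Figure D1:**
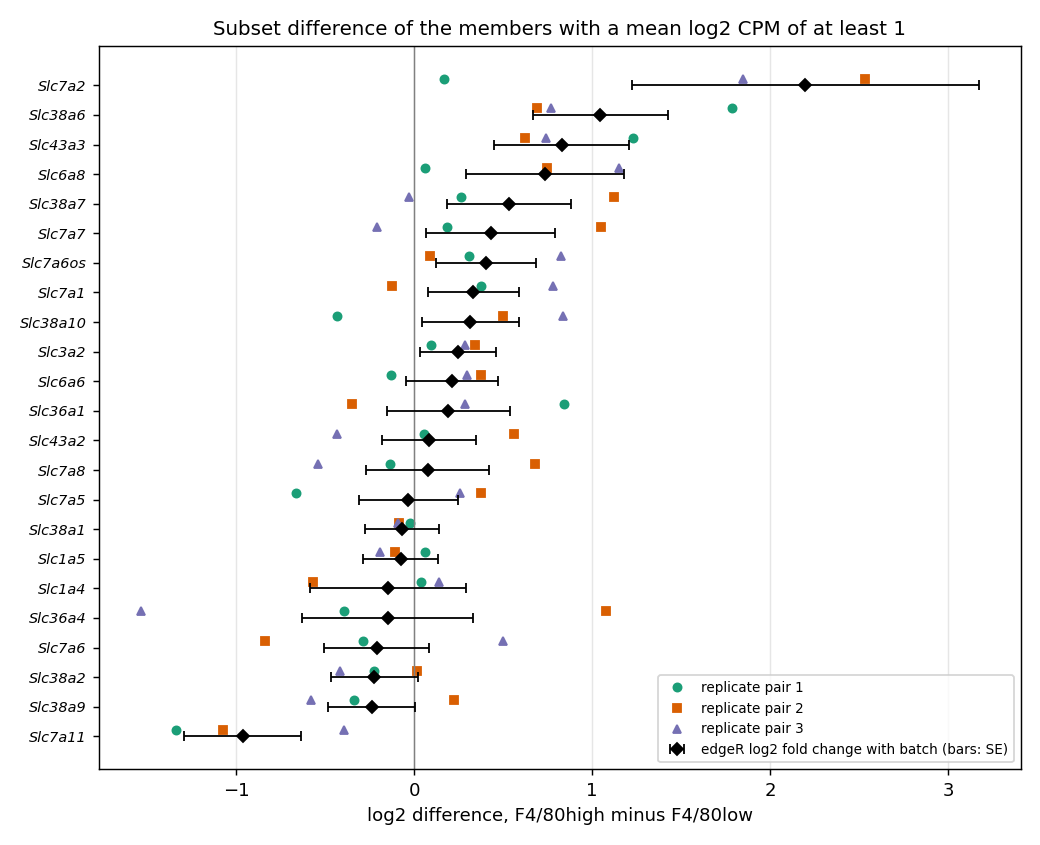
The log2 difference between the subsets is plotted on the horizontal axis for the 23 members whose mean log2 CPM was 1 or more, ordered by fold change. Coloured points are the 3 replicate pairs and black diamonds with bars are the edgeR log2 fold change with its SE; *Slc7a11* has all 3 pairs below 0, *Slc38a6*, *Slc43a3*, *Slc6a8* and *Slc7a2* have all 3 above 0, and most other members have pairs on both sides.

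The largest part of the transporter RNA came from few genes. Counts were divided by the deposited gene length for comparisons between genes, which gives CPM per kilobase. Summed over the 38 transporters, the level was 336, 461 and 455 CPM per kilobase in the F4/80high libraries against 352, 353 and 476 in the F4/80low libraries. The ranges of the subsets overlapped. *Slc3a2*, *Slc38a2*, *Slc6a6*, *Slc7a8*, *Slc1a5* and *Slc38a10* took between 76.1% and 80.2% of this sum in each library. Their mean levels over the 6 libraries were 109.7, 80.0, 60.5, 34.7, 19.8 and 15.7 CPM per kilobase in that order. The order of the highest ones was not fixed, since *Slc3a2* ranged from 51.5 to 165, *Slc38a2* from 37.7 to 172 and *Slc6a6* from 28.4 to 119 CPM per kilobase.

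**Figure D2:**
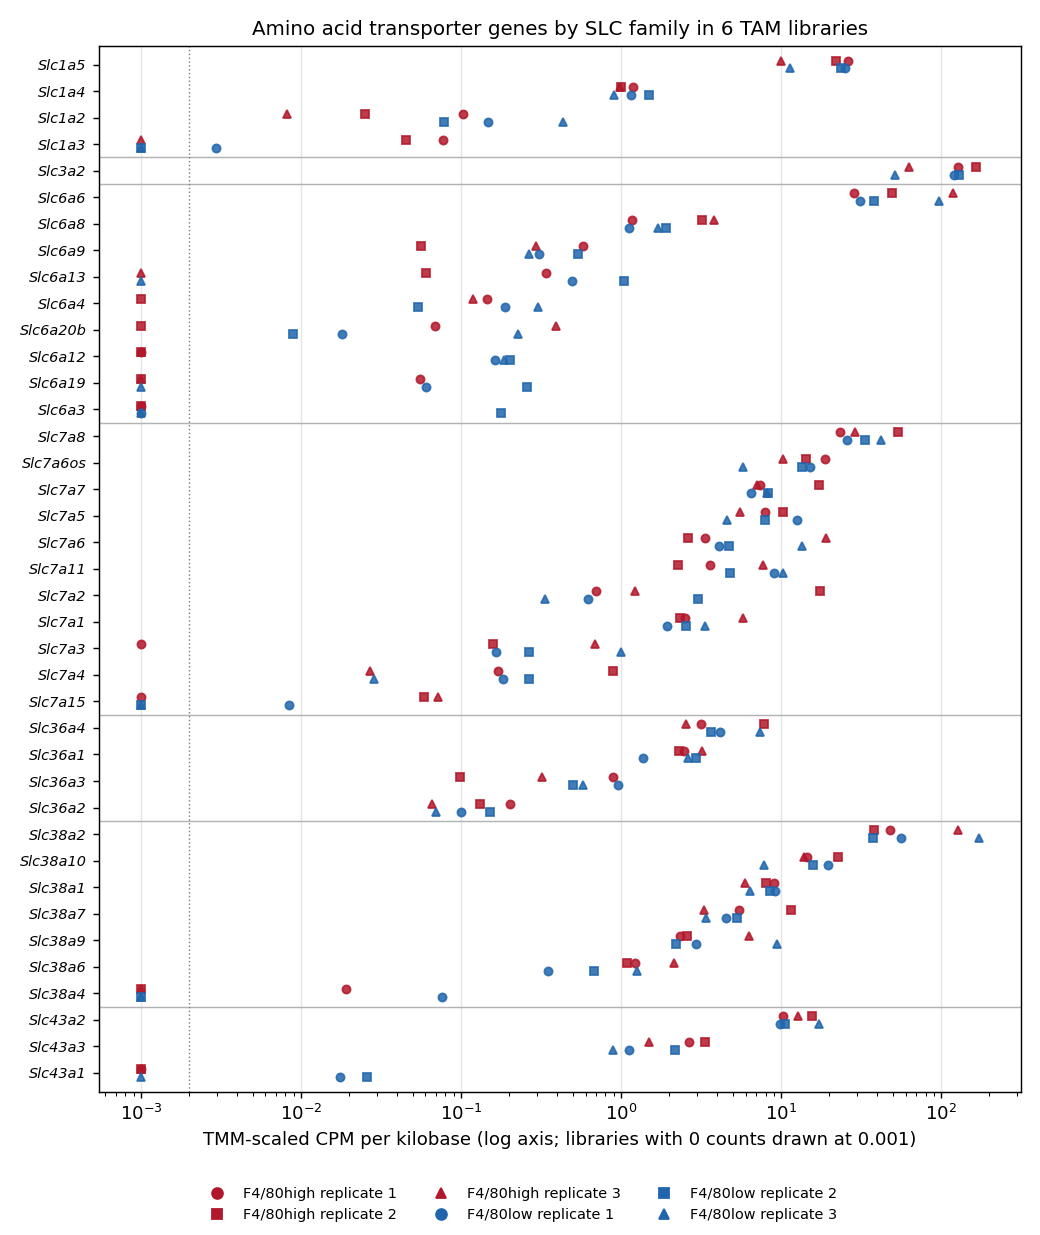
TMM-scaled CPM per kilobase (log axis) of each of the 39 members is plotted for the 6 libraries, in rows grouped by SLC family, with red for F4/80high, blue for F4/80low and a symbol for each replicate; libraries with 0 counts stand left of the dotted line. The levels span from *Slc3a2* at a mean of 109.7 to *Slc43a1* at a mean of 0.00722, and the red and blue points of every well-expressed member overlap in range.

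By family, the 4 *Slc1* genes summed to 20.6 ± 8.61 CPM per kilobase in F4/80high and 21.5 ± 7.61 in F4/80low TAMs (SD, n = 3 each, as for all sums by family), of which *Slc1a5* alone made up 89.6% to 95.4% in each library. The 10 *Slc7* transporters summed to 77.6 ± 29.1 and 70.1 ± 11.9 CPM per kilobase, and the 7 *Slc38* genes to 108 ± 45.0 and 121 ± 69.3. The 9 *Slc6* genes summed to 69.1 ± 48.8 and 58.4 ± 36.1, with 90.0% to 97.3% from *Slc6a6*. The 4 *Slc36* genes summed to 7.73 ± 2.27 and 8.18 ± 2.17 CPM per kilobase, and the 3 *Slc43* genes to 15.4 ± 3.14 and 14.0 ± 3.72. In every family the difference between the subset means was smaller than the SD within a subset. Within the pairs, the log2 ratio of F4/80high to F4/80low was above 0 in 3 of 3 pairs only for *Slc3*, which is *Slc3a2* alone (0.09, 0.34 and 0.28). For *Slc7* it was -0.31, 0.71 and -0.13, for *Slc38* -0.21, 0.26 and -0.32, for *Slc36* 0.03, 0.50 and -0.80, and for *Slc43* 0.23, 0.57 and -0.34. The *Slc1* ratios were 0.06, -0.13 and -0.21, and those of *Slc6* were -0.12, 0.32 and 0.31. No family sum was therefore lower in F4/80high TAMs in all 3 pairs.

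*Slc7a11* encodes xCT, the light chain that takes up cystine in exchange for glutamate and so feeds glutathione synthesis. It lies on chromosome 3 from 49892526 to 50443614 of GRCm38, on the minus strand. It measured 50.1, 31.7 and 108 CPM in the F4/80high libraries against 127, 66.9 and 142 CPM in the F4/80low libraries. Every F4/80high library lay below the F4/80low library of its pair, while F4/80high replicate 3 lay above F4/80low replicate 2, so the subsets overlapped. The means were 63.3 ± 39.9 and 112 ± 39.8 CPM (SD, n = 3 each), with a log2 fold change of -0.96 with an SE of 0.33 (edgeR unadjusted p = 0.0166, adjusted p = 0.538). The pairs gave log2 ratios of -1.34, -1.08 and -0.40. With the replicate block the log2 fold change was -0.94 with an SE of 0.24 (edgeR adjusted p = 0.164), and with DESeq2 and the block the adjusted p was 0.0139, with a fold change that missed the limit of 1. Leaving out each library in turn gave -1.24 to -0.58. The value of -1.24 came with 1 or the other replicate 3 library left out, when the remaining one was alone in its batch. The summed neutrophil and eosinophil markers given above were also lower in the F4/80high library of each pair. So were the sums of the fibroblast, endothelial, dendritic cell, and mast cell and basophil markers. The melanoma sum was higher in each pair, and the sums of the remaining lists had pairs of both signs. The part of these cell types in this difference was not tested.

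The promoter of *Slc7a11* is shown because it holds, in both orientations, the sequence TTGCATCA, which is bound by the amino acid response factor ATF4 with its C/EBP partners. Promoter windows were taken from RefSeq on GRCm38.p6, from 250 bases before to 50 bases after each start, and 29 of the 39 members had at least 1 window (47 windows in all). The sequence TTGCATCA, or TGATGCAA on the opposite strand, was found for 3 members. It was in 4 of the 47 member windows (8.51%), against 0.895% of all 32851 windows. The windows of *Slc7a7* that hold it overlap, and the difference in share was not tested. The members were *Slc7a11*, *Slc1a4*, which exchanges alanine, serine and cysteine, and *Slc7a7*, a light chain described below. The windows are read 5′ to 3′ on the strand of the gene, with the match in capitals. For *Slc7a11* (chr3:50443614-50443863, minus strand) the bases from -250 to -1 are given, with matches at -66 to -59 and -47 to -40. For *Slc1a4* (chr11:20332690-20332757, minus strand) and *Slc7a7* (chr14:54417918-54417985, minus strand) the stretch around the start is given, with matches at -4 to 4 and -1 to 7.
Slc7a11: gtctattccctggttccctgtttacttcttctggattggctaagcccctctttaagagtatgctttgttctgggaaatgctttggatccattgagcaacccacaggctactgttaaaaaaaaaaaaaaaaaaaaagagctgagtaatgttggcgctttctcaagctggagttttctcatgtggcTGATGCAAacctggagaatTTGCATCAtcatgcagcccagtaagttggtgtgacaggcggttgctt
Slc1a4: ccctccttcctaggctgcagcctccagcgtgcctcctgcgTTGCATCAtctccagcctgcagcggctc
Slc7a7: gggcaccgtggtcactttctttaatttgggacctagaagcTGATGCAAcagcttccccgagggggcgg
The looser form TGATGNAA, which contains the stricter one, was in windows of the same 3 members. It was in 8.51% of member windows and in 3.97% of all windows. The sequence TGACNNNGC of the antioxidant response element was in windows of 7 members (*Slc36a1*, *Slc38a2*, *Slc43a1*, *Slc6a13*, *Slc6a9*, *Slc7a1* and *Slc7a6*). It was in 19.1% of member windows and in 12.4% of all windows, both strands searched. The 3 genes with TTGCATCA did not share a difference between the subsets. Against -0.96 for *Slc7a11*, the log2 fold change was -0.15 for *Slc1a4* (SE 0.44, edgeR adjusted p = 0.96) and 0.43 for *Slc7a7* (SE 0.36, edgeR adjusted p = 0.795). A match of letters is a description of the window and not a bound site.

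*Slc3a2* encodes the CD98 heavy chain, which carries light chains to the cell surface. It measured 380.2, 488 and 186 CPM in the F4/80high libraries against 356, 385 and 152 CPM in the F4/80low libraries. Each F4/80high library was slightly above its pair, and both replicate 3 libraries were far below the others. The edgeR fit gave a log2 fold change of 0.25 with an SE of 0.22 (adjusted p = 0.799).

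Its light chains are *Slc7a5* (LAT1) and *Slc7a8* (LAT2), which carry large neutral amino acids, *Slc7a6* and *Slc7a7*, which exchange cationic for neutral amino acids, and *Slc7a11*. *Slc7a8* was the most abundant of the 5, at 42.3% to 62.4% of their summed CPM per kilobase in every library. *Slc7a8* measured 94.8, 217 and 117 CPM in the F4/80high libraries against 104, 136 and 171 CPM in the F4/80low libraries, with no common direction (edgeR log2 fold change 0.08 with an SE of 0.35 and adjusted p = 0.973). It was -0.46 without F4/80high replicate 2. *Slc7a5* measured 29.3, 38.4 and 20.4 CPM in the F4/80high libraries against 46.4, 29.6 and 17.1 CPM in the F4/80low libraries, and the ranges overlapped (edgeR log2 fold change -0.03 with an SE of 0.28 and adjusted p = 0.989).

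*Slc7a7* was highest in F4/80high replicate 2, at 56.5 CPM, while the other 5 libraries lay between 21.5 and 27.2 CPM. Its log2 fold change of 0.43 became -0.12 without that library. *Slc7a6* separated replicate 3 from the other replicates rather than the subsets. It had 71.5 and 50.6 CPM in F4/80high and F4/80low replicate 3 and 9.84 to 17.7 CPM in replicates 1 and 2. Its log2 fold change between the subsets was -0.21 with an SE of 0.29 (edgeR adjusted p = 0.899).

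The heavy chain was above the sum of the 5 light chains, per kilobase, in replicates 1 and 2 and below it in replicate 3. The ratio was 2.81, 1.91 and 0.915 in the F4/80high libraries against 2.07, 2.19 and 0.653 in the F4/80low libraries. The share of *Slc7a11* among the light chains was 7.86%, 2.64% and 11.3% in the F4/80high libraries against 15.7%, 8.09% and 13.0% in the F4/80low libraries. It was lower in the F4/80high library of each pair, while the ranges overlapped.

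**Figure D3:**
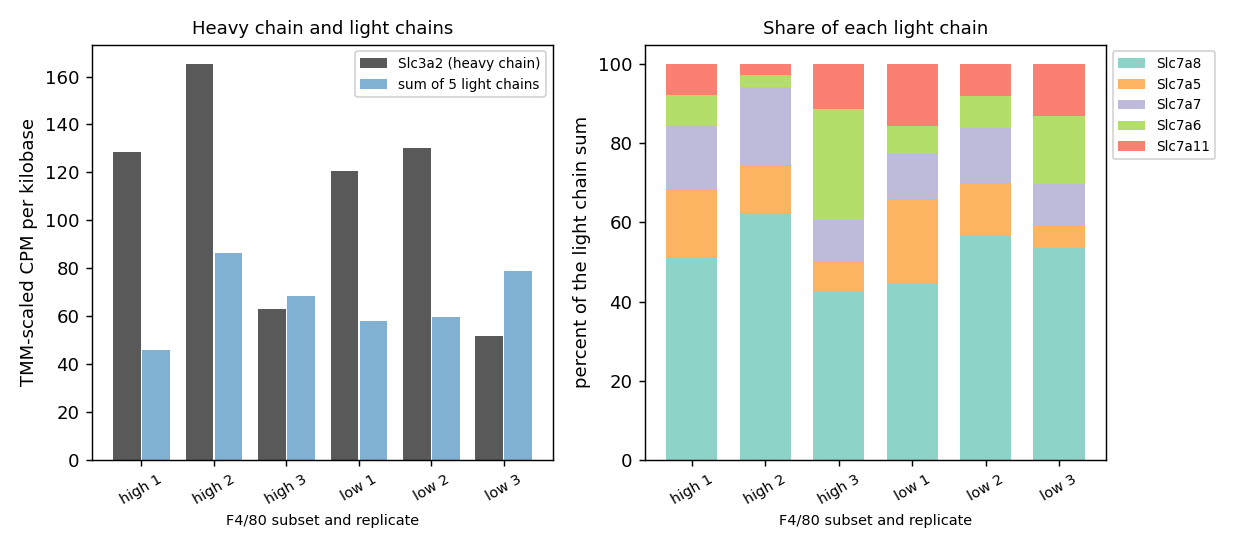
Left, TMM-scaled CPM per kilobase of *Slc3a2* and of the sum of 5 light chains in each library; right, the percent of the light chain sum taken by each light chain. *Slc3a2* is above the light chain sum in the 4 libraries of replicates 1 and 2 and below it in the replicate 3 libraries, and *Slc7a8* takes the largest share in all 6.

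The cationic amino acid transporters of the *Slc7* family take up arginine, which macrophages use through nitric oxide synthase or arginase. *Slc7a2* (CAT2) showed the largest fold change of any well-expressed member, and its size rested on a single library. It lies on chromosome 8 from 40862396 to 40922308 of GRCm38, on the plus strand. It measured 6.38, 161 and 11.2 CPM in the F4/80high libraries against 5.66, 27.7 and 3.07 CPM in the F4/80low libraries. F4/80high replicate 2 stood far above the rest and F4/80low replicate 2 came next, so the subsets overlapped. Among the libraries of replicates 1 and 3, both F4/80high libraries lay above both F4/80low libraries. The edgeR fit gave a log2 fold change of 2.20 with an SE of 0.97 (unadjusted p = 0.0503, adjusted p = 0.66), and it was -0.05 without F4/80high replicate 2, a fit in which F4/80low replicate 2 had no pair. The pairs gave log2 ratios of 0.17, 2.53 and 1.85, and the replicate block gave 1.53 with an SE of 0.44 (edgeR adjusted p = 0.239). With replicate 2 of both subsets left out, the block gave 0.94 (edgeR adjusted p = 0.625). DESeq2 with the block called it (adjusted p = 0.00735). With replicate 1 of both subsets left out, edgeR with the block gave 2.25 (adjusted p = 2.4e-05), in a fit that called 380 of 14776 genes. Both of these left-out fits were chosen after the values were seen. F4/80high replicate 2 is also the library with the highest macrophage marker sum, and the part of this in *Slc7a2* was not tested. An exon of *Slc7a2* overlaps *Gm26584* on the opposite strand, and the use of strand in counting is not given.

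*Slc7a1* (CAT1), the widely expressed cationic transporter, measured 29.2, 26.9 and 66.3 CPM in the F4/80high libraries against 22.4, 29.4 and 38.6 CPM in the F4/80low libraries. The subsets overlapped and the log2 fold change was 0.33 with an SE of 0.26 (edgeR adjusted p = 0.776). *Slc7a3* (CAT3) was scarce, with 0 to 41 counts, and was lower in F4/80high in 3 of 3 pairs (edgeR adjusted p = 0.849). The related *Slc7a4* had 182 counts in F4/80high replicate 2 and 1 to 43 in the other libraries (edgeR adjusted p = 0.837).

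Across the family of glutamine and other neutral amino acid carriers, *Slc38a6*, whose substrates are less well defined, had the largest fold change among the well-expressed genes of its family. The gene lies on chromosome 12 from 73286779 to 73354049 of GRCm38, on the plus strand. It measured 9.55, 8.52 and 16.7 CPM in the F4/80high libraries against 2.73, 5.25 and 9.79 CPM in the F4/80low libraries. All pairs had the same sign, while F4/80low replicate 3 lay above F4/80high replicates 1 and 2. The edgeR fit gave a log2 fold change of 1.04 with an SE of 0.38 (unadjusted p = 0.0221, adjusted p = 0.576), the pairs gave 1.78, 0.69 and 0.77, and leaving out each library gave 0.78 to 1.31.

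*Slc38a2* (SNAT2), which imports small neutral amino acids with sodium and is induced when amino acids run short, measured 222, 176 and 594 CPM in the F4/80high libraries against 260.0, 174 and 795 CPM in the F4/80low libraries. Both replicate 3 libraries lay above the other 4, and the log2 fold change between the subsets was -0.22 with an SE of 0.24 (edgeR adjusted p = 0.855). *Slc38a1* (SNAT1), a glutamine importer whose gene is its neighbour at 44479 bases on chromosome 15, had pairs that lay close together. It measured 76.0, 67.3 and 50.3 CPM in the F4/80high libraries against 77.3, 71.5 and 53.6 CPM in the F4/80low libraries. Each F4/80high library was below its pair by a log2 difference of 0.03, 0.09 and 0.09 in size (edgeR log2 fold change -0.07 with an SE of 0.21 and adjusted p = 0.96).

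Of the lysosomal members, *Slc38a9* senses arginine for mTORC1, *Slc38a7* exports glutamine from the lysosome, and *Slc36a1* exports small amino acids with protons. *Slc38a9* measured 20.7, 23.0 and 56.1 CPM in the F4/80high libraries against 26.2, 19.6 and 83.9 CPM in the F4/80low libraries (edgeR log2 fold change -0.24 with an SE of 0.25 and adjusted p = 0.838). *Slc38a7* reached 48.1 CPM in F4/80high replicate 2 and lay between 13.7 and 22.7 CPM in the other 5 libraries (edgeR log2 fold change 0.53 with an SE of 0.35 and adjusted p = 0.732, and 0.04 without that library). *Slc36a1* lay between 13.0 and 17.9 CPM in F4/80high and between 7.74 and 16.6 CPM in F4/80low TAMs (edgeR log2 fold change 0.19 with an SE of 0.35 and adjusted p = 0.928). None of these 3 separated the subsets. *Slc36a4*, a high-affinity carrier of proline and tryptophan, had pairs of opposite sign at log2 ratios of -0.39, 1.08 and -1.53. Its log2 fold change was -0.15, and 0.48 with 1 or the other replicate 3 library left out. In those fits the remaining replicate 3 library was alone in its batch and added nothing to the subset difference.

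The glutamine exchanger *Slc1a5* (ASCT2) had 109, 91.3 and 41.6 CPM in the F4/80high libraries against 105, 98.4 and 47.5 CPM in the F4/80low libraries, so that the pairs lay close together and replicate 3 lay below the rest. The edgeR fit gave a log2 fold change of -0.07 with an SE of 0.21 (adjusted p = 0.957). Its relative *Slc1a4* (ASCT1) measured 4.66, 3.92 and 3.89 CPM in the F4/80high libraries against 4.53, 5.84 and 3.53 CPM in the F4/80low libraries, which overlapped. The high-affinity glutamate transporters were scarce. *Slc1a3* (GLAST) had 26, 20 and 0 counts in the F4/80high libraries against 1, 0 and 0 counts in the F4/80low libraries (edgeR adjusted p = 0.687). *Slc1a2* (GLT-1) had 54, 17 and 1 counts in the F4/80high libraries against 77, 42 and 50 counts in the F4/80low libraries, and was lower in F4/80high in 3 of 3 pairs without passing the test (edgeR adjusted p = 0.714).

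In the *Slc6* family the taurine transporter *Slc6a6* measured 175, 303 and 737 CPM in the F4/80high libraries against 192, 234 and 599 CPM in the F4/80low libraries. It was highest in both replicate 3 libraries and the subsets overlapped (edgeR log2 fold change 0.21 with an SE of 0.26 and adjusted p = 0.879). The creatine transporter *Slc6a8* measured 6.10, 16.8 and 19.8 CPM in the F4/80high libraries against 5.84, 9.97 and 8.88 CPM in the F4/80low libraries. It was higher in F4/80high in 3 of 3 pairs, by log2 ratios of 0.06, 0.75 and 1.15 (edgeR log2 fold change 0.73 with an SE of 0.44 and adjusted p = 0.716). The glycine transporter *Slc6a9* had 12 to 118 counts with pairs of both signs (edgeR adjusted p = 0.963).

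*Slc6a12*, the betaine and GABA transporter BGT1, was the single member whose subsets did not overlap, which 2.88% of all genes showed in that direction and 2.27% in the other. It had 0, 0 and 0 counts in the F4/80high libraries against 20, 25 and 5 counts in the F4/80low libraries. With each F4/80high library set to a floor of 3 counts, the mean level in F4/80low was 3.68-fold the mean floor. In replicate 3 the F4/80low level was 0.569 CPM, against a floor of 0.324 CPM in F4/80high. The edgeR unadjusted p was 0.0146 and the adjusted p was 0.536. The level in F4/80low TAMs was 0.561 ± 0.0568 CPM (SD, n = 3). It passed the limit of 10 counts through F4/80low libraries alone, so a member like it could only have been kept if the subsets differed. Its neighbour *Slc6a13* (GAT2), 5343 bases away on chromosome 6, had 39, 9 and 0 counts in the F4/80high libraries against 57, 124 and 0 counts in the F4/80low libraries (edgeR adjusted p = 0.738).

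Among the *Slc43* genes, *Slc43a3*, the nucleobase transporter, measured 11.8, 14.9 and 6.69 CPM in the F4/80high libraries against 5.01, 9.65 and 3.99 CPM in the F4/80low libraries. All pairs had the same sign, at 1.23, 0.62 and 0.74, while the third F4/80high library was under the highest F4/80low library (log2 fold change 0.83, SE 0.38, edgeR unadjusted p = 0.0568, adjusted p = 0.683). *Slc43a2* (LAT4), a carrier of large neutral amino acids, lay between 103 and 156 CPM in F4/80high and between 99.3 and 173 CPM in F4/80low TAMs (edgeR log2 fold change 0.08 with an SE of 0.26 and adjusted p = 0.96). *Slc7a6os*, which is no transporter, measured 28.6, 21.8 and 15.8 CPM in the F4/80high libraries against 23.0, 20.5 and 8.88 CPM in the F4/80low libraries, above its pair each time (edgeR log2 fold change 0.40 with an SE of 0.28 and adjusted p = 0.745).

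**Figure D4:**
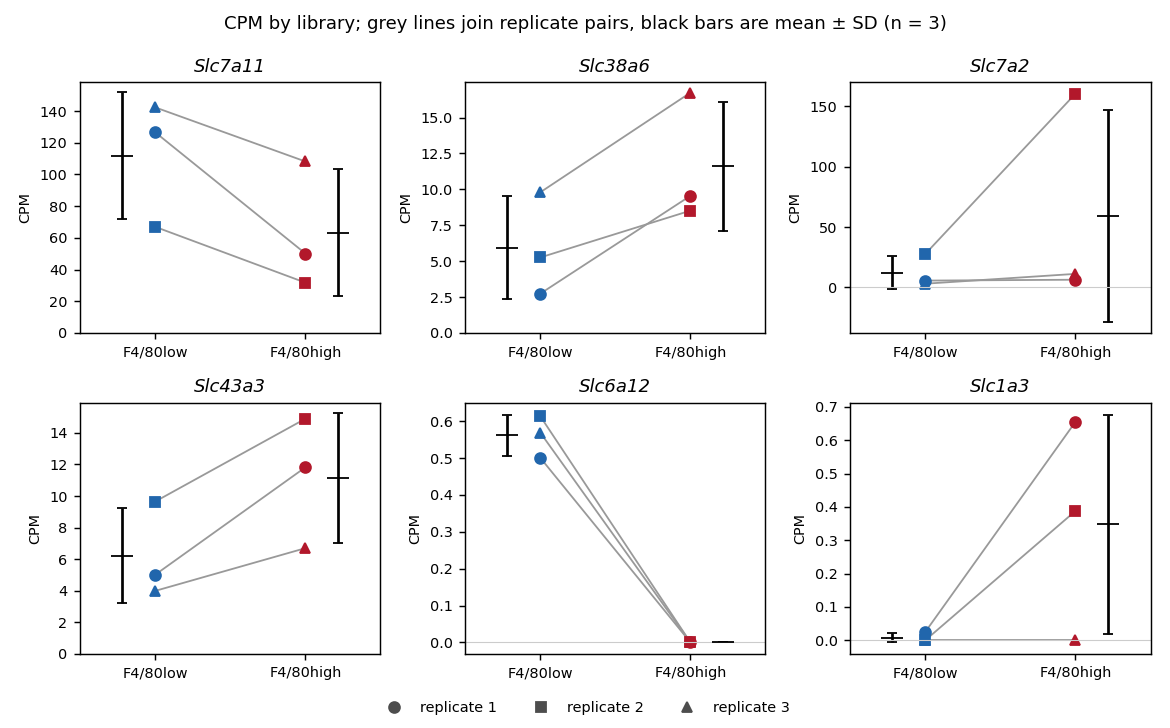
CPM of *Slc7a11*, *Slc38a6*, *Slc7a2*, *Slc43a3*, *Slc6a12* and *Slc1a3* by library, with F4/80low on the left and F4/80high on the right of each panel, grey lines joining replicate pairs and black bars for the mean ± SD (n = 3), which for *Slc7a2* reach below 0. The lines slope the same way in all pairs of the panels other than *Slc1a3*; for *Slc7a2* the F4/80high mean is set by replicate 2 at 161 CPM.

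Most of the remaining members were at low counts, and none passed the test. *Slc43a1* (LAT3) had 4 and 6 counts in F4/80low replicates 1 and 2 alone. *Slc6a3* had 25 counts in F4/80low replicate 2 alone. *Slc38a4*, a system A carrier, had 3 counts in F4/80high replicate 1 and 12 in F4/80low replicate 1, and *Slc7a15* had 9 and 2 counts in F4/80high replicates 2 and 3 and 1 in F4/80low replicate 1. Each of these 4 was at 0 in at least 3 of the 6 libraries. *Slc6a4* had 0 to 34 counts, *Slc6a19*, a carrier of neutral amino acids, 0 to 53 counts, and *Slc6a20b* 0 to 20 counts. *Slc6a20b* has a near-identical paralog, so its counts are uncertain. *Slc36a2* had 2 to 26 counts and *Slc36a3* 7 to 90 counts in a cluster with *Slc36a1* on chromosome 11. *Slc38a10*, whose transport is less well defined, was among the higher members, with 145 CPM in F4/80high replicate 2, and had pairs of both signs (edgeR log2 fold change 0.31 with an SE of 0.27 and adjusted p = 0.797). The exons of 10 members (*Slc1a2*, *Slc38a9*, *Slc38a10*, *Slc43a2*, *Slc6a6*, *Slc6a9*, *Slc6a20b*, *Slc7a2*, *Slc7a4* and *Slc7a7*) overlap a gene on the opposite strand, and reads of such a pair cannot be told apart without strand.

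More members differed between replicate 3 and the other replicates than between the subsets, a comparison chosen after values were seen. For the batch term of the edgeR fit, 12 of 39 members had an adjusted p under 0.05, against 42.4% of all genes, a smaller share, with no test of that difference. Both replicate 3 libraries were taken to come from a single experiment. This p therefore measures the spread between libraries and not between experiments. Higher in replicate 3 were 7 members (*Slc7a6*, *Slc38a2*, *Slc38a9*, *Slc6a6*, *Slc38a6*, *Slc7a11* and *Slc7a1*; 19.8% of all genes), with log2 differences of 2.18, 1.73, 1.62, 1.56, 1.09, 1.00 and 0.92. Lower in replicate 3 were 5 members (*Slc3a2*, *Slc1a5*, *Slc7a6os*, *Slc7a5* and *Slc6a13*; 22.6% of all genes), with log2 differences of -1.25, -1.18, -0.97 and -0.94 for those named before *Slc6a13*, which had 0 counts in both replicate 3 libraries. As a share of the summed CPM per kilobase, *Slc3a2* took 34.2% to 38.2% in the libraries of replicates 1 and 2 and 10.8% and 13.8% in those of replicate 3. *Slc38a2* took 8.25% to 16.0% in the former and 28.3% and 36.1% in the latter. Experiment, depth and the share of counts taken by 3 features all moved with replicate 3 and cannot be told apart.

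**Figure D5:**
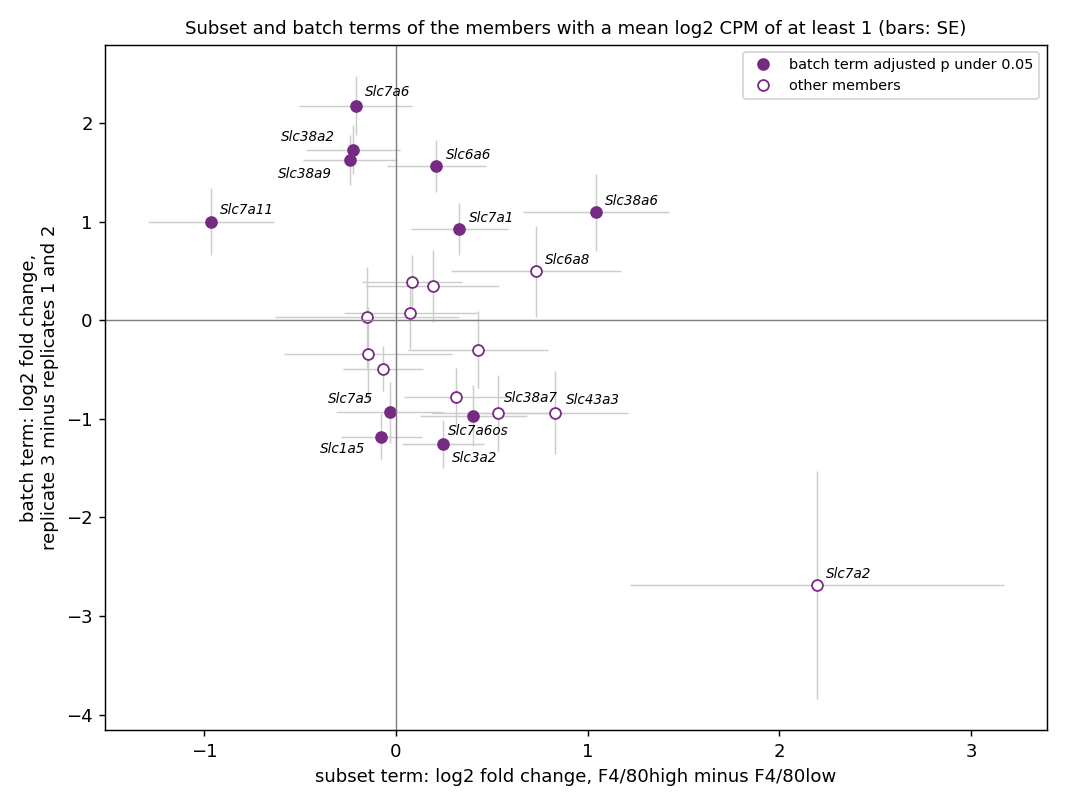
The edgeR log2 fold change between the subsets (horizontal axis) is plotted against that between replicate 3 and replicates 1 and 2 (vertical axis) for the 23 members whose mean log2 CPM was 1 or more, with SE bars. Filled points have a batch term with an adjusted p under 0.05; *Slc7a6*, *Slc38a2*, *Slc38a9* and *Slc6a6* lie high on the vertical axis and near 0 on the horizontal one, and *Slc7a11* and *Slc38a6* are set apart to either side.

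F4/80high replicate 2 was often the highest library. It led the 6 libraries for 8 of the 23 well-expressed members, against 22.5% of all genes at that level, a count chosen after values were seen. It exceeded the next library by over 1.5 times for 3 of them (*Slc7a2*, *Slc7a7* and *Slc38a7*), against 4.57%. Neither share was tested.

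Genes around the transporters were read from lists. Of 19 other amino acid transporters tested, 0 had an unadjusted p under 0.05, against 7.57% of all genes. In the list of glutathione and cystine use, 2 of 20 genes had such a p and were lower in F4/80high TAMs (*Gsr* and *Ggt5*; 4.30% of all genes). In the same list 1 was higher (*Anpep*; 3.26% of all genes). *Gsr*, glutathione reductase, measured 407, 168 and 662 CPM in the F4/80high libraries against 1009, 678 and 1518 CPM in the F4/80low libraries, with every F4/80high library below every F4/80low library. The neutrophil and eosinophil sums, and the other marker sums named with them for *Slc7a11*, were lower in the same pairs. Their part was not tested. The edgeR fit gave a log2 fold change of -1.43 with an SE of 0.35 (adjusted p = 0.456), and with the replicate block it was called lower at -1.51 with an SE of 0.21 (edgeR adjusted p = 0.0316). DESeq2 called *Gsr* with batch (adjusted p = 0.0101) and with the block (adjusted p = 3.4e-08), against 1.02% and 2.42% of all genes. With the block DESeq2 also called *Cth* as lower (adjusted p = 0.0411), a gene at 0 to 0.655 CPM in the F4/80high libraries. The subunits of the enzyme that starts glutathione synthesis did not pass the test, at log2 fold changes of 0.42 for *Gclc* (SE 0.33) and -0.04 for *Gclm* (SE 0.27).

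Of 24 genes of the ATF4 amino acid response, 1 had an unadjusted p under 0.05, against 7.57% of all genes. This was *Cebpb* at -0.84 with an SE of 0.24 (edgeR adjusted p = 0.509, and 0.0849 with the replicate block). DESeq2 with the block gave *Cebpb* an adjusted p of 0.00217, but none of the 24 was called by any of the 4 fits. *Atf4* itself was at -0.28 (SE 0.24) and *Asns*, asparagine synthetase, at -0.10 (SE 0.30). Of 29 genes of mTORC1 amino acid sensing, 4 had such a p and were higher in F4/80high TAMs (*Sesn1*, *Flcn*, *Mitf* and *Rragc*; 3.26% of all genes). In that list 1 was lower (*Tfeb*; 4.30% of all genes), and none was called by any of the 4 fits. Of 17 enzymes of glutamine and glutamate, *Glul*, glutamine synthetase, was the 1 with such a p (7.57% of all genes). It measured 36.1, 52.1 and 49.0 CPM in the F4/80high libraries against 26.7, 29.7 and 23.1 CPM in the F4/80low libraries, with no overlap (edgeR log2 fold change 0.79 with an SE of 0.25 and adjusted p = 0.53). The median log2 fold changes of these lists, in the order given, were 0.06, -0.21, -0.03, 0.10 and 0.03, against 0.01 over all genes.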

How the data were processed

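The authors sorted F4/80high and F4/80low TAMs, and their sequencing center extracted RNA and made the deposited read counts of 23424 genes per library with its standard alignment pipeline. The deposited tables hold raw counts with a gene length and biotype. The aligner, counting rule, strand use, annotation and build are not given in the sources used here. The paper's methods keep protein-coding genes with at least 10 counts and correct for batch with DESeq2. The batch of each library was read from the key of a plot in its supplement.

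From the counts, the 14776 protein-coding rows by the deposited biotype with 10 or more counts were fitted in R 4.3.3 with edgeR 4.0.16 (TMM, quasi-likelihood, batch and subset), with limma 3.58.1 as its dependency. P-values were adjusted over all 14776 rows, and an SE is the fold change divided by the root of F. DESeq2 1.42.0 was an alternative and gave no adjusted p for 8 members. Ratios within pairs used a prior count of 2. Other alternatives were scaling, batch, the replicate block, count filters, biotypes and left-out libraries. Genes named are a set fixed by role, those with an unadjusted p under 0.05 or a call, those with the largest fold change and the same direction in all pairs, those at the count limit, and up to 3 genes a list in each direction. The low-count members were named after their values were seen. The members and lists (5 of related genes, 11 of cell type markers) were chosen with earlier results of these data known.

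Libraries of the same number were taken as pairs because the study reports 3 independent experiments. After the subset means were taken off, paired libraries correlated at 0.745, 0.729 and 0.907 over 10089 genes. The batch difference was left in and libraries of unlike number were not compared. These values therefore do not test the pairing within replicates 1 and 2. The fits were tested on simulated data in several versions, with different gene-wise or trended spread and random seeds. The share of false calls by edgeR was near the nominal level in some versions and above it in others, including the earliest one, and that of DESeq2 was above it in all. Positions are from GENCODE M21 on GRCm38, matched by gene ID, and promoters from RefSeq on GRCm38.p6.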

Additional observations from a re-analysis of the deposited data

How the results depend on the processing

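Of the 39 members, 0 were called under every alternative but DESeq2 with the replicate block and edgeR with the block after replicate 1 of both subsets was left out, each of which called 1 member, *Slc7a2*. These fits called 357 and 380 of 14776 genes. Under RLE scaling, library size alone, no batch term, other count filters and rows of every biotype, 0 of all genes were called. The same held with replicate 3 of both subsets left out and no block. In those fits a count of 0 says nothing particular to the members. Leaving out each library in turn gave 0 calls among the members. There 55 of 14776 genes were called without F4/80high replicate 1, and 0 in every other such fit. The count of members with an unadjusted p under 0.05 was 3 in the fit reported (7.57% of all genes), 5 with scaling to library size alone (7.09%), 5 with the replicate block in place of batch (9.84%), 6 with DESeq2 and the block (11.7%), and 5 with the block and replicate 3 of both subsets left out (6.45%). Leaving out each library gave 0 to 6 members, where the share of all genes ran from 3.80% to 13.5%. Of the 24 members with at least 10 counts in every library, 8 kept the same direction in all pairs. With no such limit it was 13 of 39, so the lower count came with fewer genes. Scaling to library size alone moved the median of all genes to 0.05 from 0.01.

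Over 26 named members and 19 settings, of which 3 were chosen after values were seen (leaving out 1 replicate number of both subsets with the block), 463 of 493 log2 fold changes kept their direction and side of the threshold, 2 passed it (both *Slc7a2*), and 28 changed sign. The sign held under every setting run for 15 members, *Slc7a11* and *Slc38a6* among them. With replicate 2 of both subsets left out and the block, the sign turned for *Slc7a7* (-0.048), *Slc1a4* (0.049), *Slc7a8* (-0.38), *Slc6a9* (0.53), *Slc7a6* (0.066) and *Slc43a2* (-0.23). With replicate 1 left out in the same way it turned for *Slc36a1* (-0.040) and *Slc7a5* (0.32). With replicate 3 of both subsets left out it turned for *Slc36a4* (0.48 with no batch term, 0.35 with the block). Without the batch term *Slc7a6* was at 0.17, and with library size alone *Slc7a5* was at 0.0090. The cause was not tested. Leaving out 1 library gave ranges that crossed 0 for *Slc7a7* (-0.12 to 0.73), *Slc1a4* (-0.27 to 0.0093), *Slc36a1* (-0.059 to 0.58), *Slc7a8* (-0.46 to 0.38), *Slc6a9* (-1.56 to 0.30), *Slc6a6* (-0.061 to 0.42), *Slc7a2* (-0.053 to 3.10), *Slc43a2* (-0.21 to 0.34), *Slc7a5* (-0.17 to 0.22) and *Slc36a4* (-0.83 to 0.48). With 3 libraries a subset, a member that misses the threshold is not shown to be equal in both, and 11 members had 0 counts in at least 1 library.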
